A study of Mus musculus with 18 samples.

Results

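Mammary tumours of 6 of 18 AKXD strains, strains 2, 9, 13, 18, 20 and 27, carried far more miR-196a than those of the other 12, strains 3, 7, 10, 11, 14, 16, 21, 22, 23, 24, 25 and 28. The 6 strains were chosen by their miR-196a level itself, so that level is a description and was not tested. AKXD strains are recombinant inbred mouse strains derived from AKR/J and DBA/2J. Each was bred to the FVB/N-TgN(MMTV-PyVT)634Mul line, in which the mouse mammary tumour virus promoter drives the polyoma virus middle T oncogene chiefly in mammary epithelium, and the F1 sublines gave the mammary tumours whose small RNA was sequenced. Every mouse in both groups therefore had an FVB/N parent, and the labels give the same transgenic line, tissue and extraction for all 18 strains. No group was free of the transgene and no healthy mammary gland is among the samples used here. Each strain is represented by 1 pooled library, so n counts strains, the p-values measure the spread between these pools, and the sources used here do not say how many mice or tumours each pool held, how old the mice were, or in which batches libraries were made.

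MicroRNAs are cut from hairpin precursors and repress messenger RNAs that pair with their seed, bases 2 to 8 of the mature strand. The strand loaded less often is marked with a star in the naming used for these data. The miR-196 and miR-10 genes lie inside the Hox clusters, groups of transcription factor genes that set position along the body axis, and in mouse embryos miR-196 directs cleavage of the Hoxb8 messenger RNA. Mature miR-196a comes from both Mir196a-1 in the HoxB cluster and Mir196a-2 in the HoxC cluster, while miR-196b comes from the HoxA cluster.

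The sequences that define the comparison are shown from RefSeq (GRCm38.p6) in lower case with the seed in capitals. The miR-196a and miR-196b strands share a seed and differ by 1 of 22 bases (A12C, counted from the 5′ end, miR-196a first), and miR-10a and miR-10b differ by U12A. The 3p strands of the Mir196a loci have different seeds from each other.
miR-196a-5p: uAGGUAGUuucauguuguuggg
miR-196b-5p: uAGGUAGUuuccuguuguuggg
miR-196a-1-3p: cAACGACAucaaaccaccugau
miR-196a-2-3p: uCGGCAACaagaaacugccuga
miR-10a-5p: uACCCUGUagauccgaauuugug
miR-10b-5p: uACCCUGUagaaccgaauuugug
Each of the 2 miR-196a hairpins is shown whole, with its mature strands in capitals, because the 5p strand is identical in both and only the 3p strand tells them apart.
Mir196a-1: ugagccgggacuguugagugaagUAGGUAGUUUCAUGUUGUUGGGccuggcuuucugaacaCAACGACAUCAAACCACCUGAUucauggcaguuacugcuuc
Mir196a-2: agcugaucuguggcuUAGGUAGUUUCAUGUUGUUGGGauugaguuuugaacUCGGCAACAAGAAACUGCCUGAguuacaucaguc

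In GRCm38, Mir196a-1 lies at chr11:96265164-96265265 on the plus strand, overlaps no annotated gene, and has Hoxb13 67.7 kb before it and Hoxb9 6.2 kb after it. Mir196a-2 lies at chr15:102973350-102973434 on the plus strand, in an intron of a Hoxc5 transcript, with Hoxc10 1.5 kb before it and Hoxc9 3.0 kb after it. Mir196b lies at chr6:52230081-52230165 on the minus strand, in an exon of a Hoxa9 transcript.

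Levels are given in CPM, the usual sequencing unit that relates the reads of a miRNA to all miRNA reads of its library, here after libraries were scaled to each other. The miR-196a level was 412 CPM in strain 20, 411 in strain 18, 382 in strain 2, 332 in strain 9, 290 in strain 27 and 233 in strain 13, against a lowest value of 6.22 CPM (strain 22), a median of 10.3 and a highest of 26.5 (strain 14) in the 12 other strains. No strain fell between strain 13, just inside the chosen set, and strain 14, just outside it, a gap of 3.09 on the log2 scale. The same 6 strains lay above the widest gap when libraries were scaled by total counts (gap 2.85 log2), by the upper quartile (2.90) or by the median of ratios (3.03). The mean of log2(CPM + 1) differed by 4.70 between the 6 and the 12 strains. These levels rest on 2349 to 4804 reads per library in the 6 strains and on 37 to 335 reads in the 12 others. In order of abundance, miR-196a stood between place 89 and place 106 of 571 distinct rows in the 6 strains and between place 213 and place 308 in the others. In bulk tumour RNA, fewer cells of a type and less RNA per cell cannot be told apart.

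The star strand, miR-196a*, was also found mostly in the 6 strains. Its reads numbered 30 in strain 18, 23 in strain 2, 12 each in strains 9 and 27, 10 in strain 20 and 7 in strain 13, against 1 read each in strains 3, 11 and 22 and 0 in the other 9 strains. A count of 0 allows up to 3 reads in that library, and in strain 25 a single read is also written as 0. Summed, they were 94 in the 6 strains and 3 in the 12 others. Relative to all miRNA reads counted in each group this was a ratio of 47.2 (exact 95% interval 15.7 to 233.2, counting error only). It made up 0.369% of the reads of both strands in the 6 strains (exact Clopper-Pearson 95% interval 0.298% to 0.451%) and 0.187% in the 12 others (0.0385% to 0.545%), so a difference in the share was not detectable at this depth. miR-196a* is cut from the same hairpins as miR-196a and is no independent measurement of the split. The deposited table gives no sequence for the row, so whether the reads were the Mir196a-1 or the Mir196a-2 3p strand printed above cannot be told apart.

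**Figure D1:**
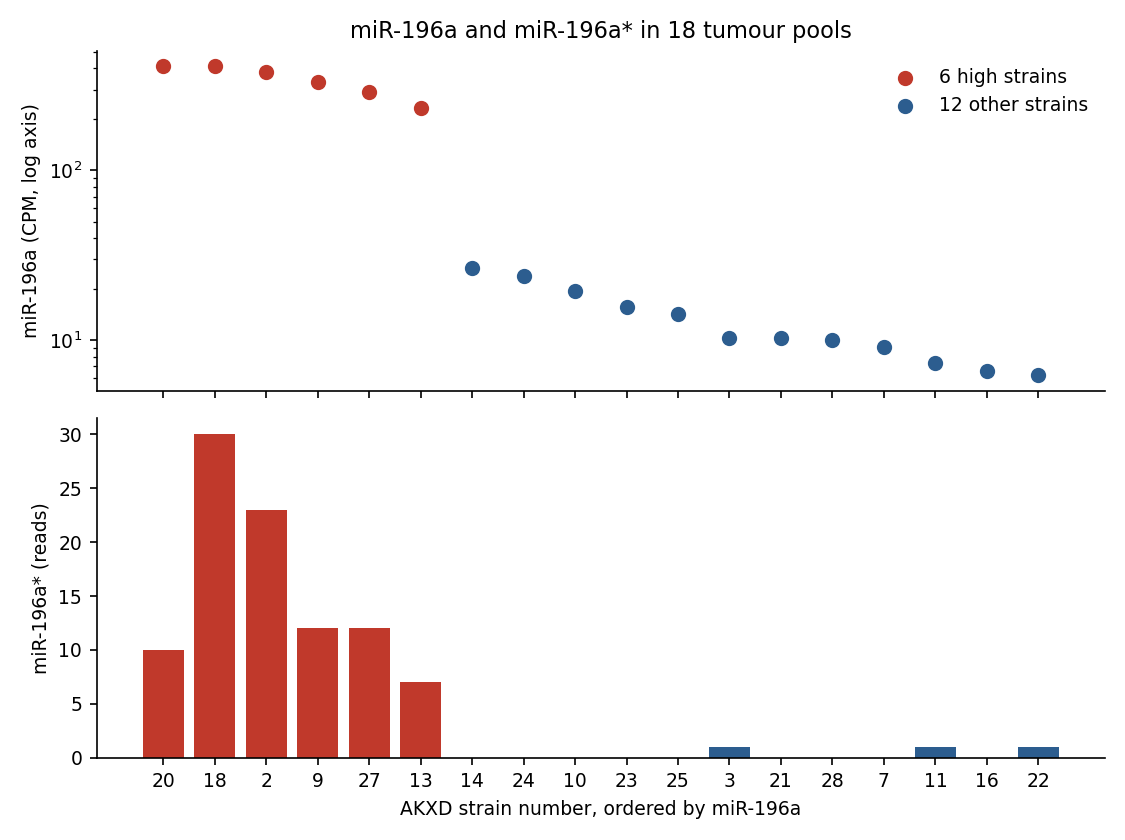
Upper panel: level of miR-196a in each strain (CPM, log axis), 1 point per pooled library, ordered by that level; lower panel: reads of miR-196a* in the same libraries. The 6 high strains lie between 233 and 412 CPM with 7 to 30 star reads, and the 12 others between 6.22 and 26.5 CPM with 0 or 1.

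Over the distinct miRNA rows, the libraries held 10291343 to 14939851 reads in the 6 strains and 4361226 to 13883756 reads in the 12 others. The 6 thus held more miRNA reads on the whole, and reads outside these rows are not in these totals. Their scaling factors ran between 0.771 and 1.16, against 0.671 and 1.67, and their numbers of rows above 0 between 509 and 536, against 482 and 534. The 482 is of strain 25, where a single read is written as 0, and strain 7 had 483. On principal component 1, which held 28.7% of the variance, the 4 lowest libraries were strains 13 and 20 of the 6 and strains 10 and 14 of the 12. Without those 4 strains the levels of miR-196a nearest to each other across the groups were 290 CPM in strain 27 and 23.7 CPM in strain 24. Strain 28 of the 12 stood apart by low values of 3 abundant miRNAs, miR-21, miR-146b and let-7c. Their lowest values in the 6 strains were 52922, 27205 and 148784 CPM, in that order, against medians of 69231, 38187 and 174766 CPM over the 12 and 274, 940 and 8641 CPM in strain 28. The differences of the 3 rest on that library, with 0.67 log2 for miR-21, 0.35 for miR-146b and 0.29 for let-7c in all strains, and -0.02, -0.15 and -0.12 without strain 28.

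The question of the comparison is which other miRNAs differed with the split. Of the 280 other miRNAs that averaged 10 CPM or more, 0 (0%) passed an adjusted p of 0.05 in either direction, in an exact two-sided permutation test over all ways to pick 6 of 18 strains with Benjamini-Hochberg adjustment, and the smallest adjusted permutation p was 0.568. At an unadjusted permutation p under 0.05 there were 14 (5.0%), of which 12 (4.29%) were higher and 2 (0.714%) lower in the 6 strains. limma likewise called 0 of 280 (0%) at an adjusted p under 0.05 and 12 (4.29%) at an unadjusted p under 0.05, with a smallest adjusted p of 0.77. For 0 of the 280 (0%) did the 6 values lie wholly apart from the 12. Among the 290 rows under the filter, 1 (0.345%) did, and it was miR-196a*, cut from the same hairpins as the miRNA that chose the strains. The smallest p the permutations can give is 5.4e-05, which as a single call would have an adjusted p of 0.0151, so the design could have called a fully separated miRNA.

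The differences themselves were small beside that of miR-196a. Differences in mean log2(CPM + 1), 6 strains minus 12, ran between -0.98 and 0.86 with a median of 0.02, and none of the 280 reached 1 log2 in size. The difference was within 0.5 log2 for 93.6% of them. 154 miRNAs were higher and 126 lower in the 6 strains, but with scaling by total counts 121 were higher and 160 lower. The limma 95% interval had a median half-width of 0.46 log2, and for 233 of the 280 it lay inside a change of 1 log2 in either direction, while for the other 47 larger changes remain within the interval.

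**Figure D2:**
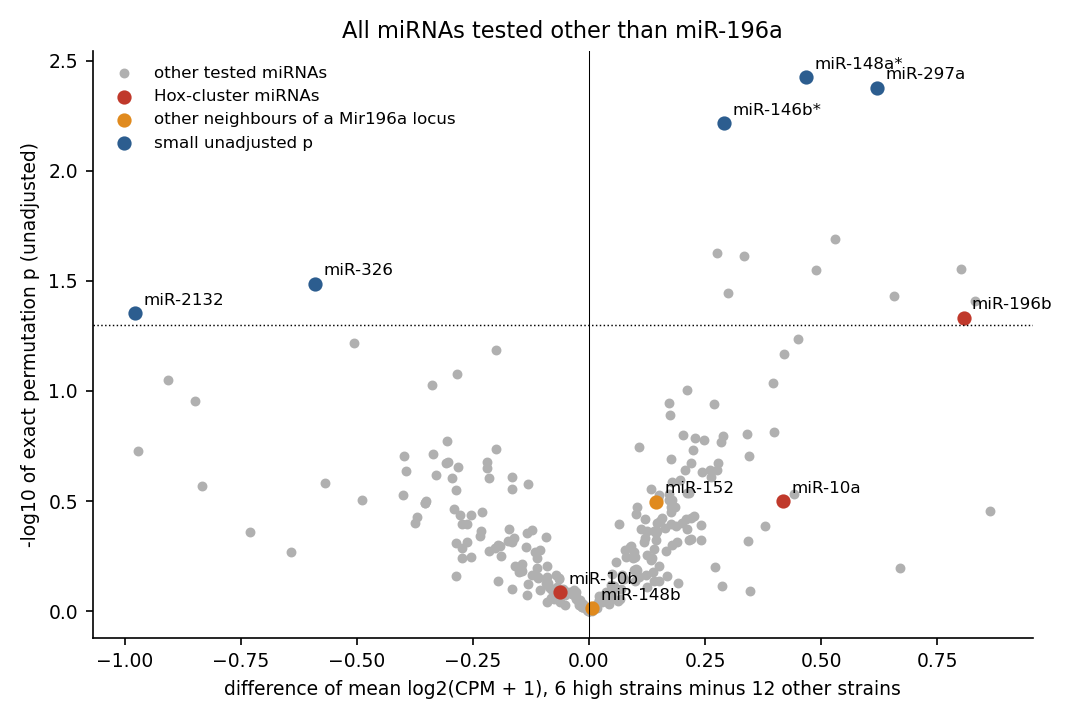
Difference in mean log2(CPM + 1), 6 high strains minus 12 others, for each of the 280 tested miRNAs, against −log10 of the unadjusted exact permutation p; the dotted line marks p = 0.05. The differences lie between -0.98 and 0.86, against 4.70 for miR-196a, which chose the strains.

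Among the Hox-cluster miRNAs, miR-196b had the largest difference of the 3 tested. Of 9 listed mature strands of these clusters 8 had a row in the table, 3 passed the 10 CPM filter, 0 were called and 1, miR-196b, had an unadjusted permutation p under 0.05, beside 5.0% over all 280. That count was 0 with median-of-ratios scaling and in 13 of the 18 fits without 1 strain, those without strain 2, 7, 9, 13, 16, 18, 20, 21, 22, 23, 25, 27 or 28. Their median difference was 0.42 log2, beside 0.02 over all 280, and this median is the miR-10a value. Without strain 13 it was 0.09 log2, beside 0.04 over all, and without strains 10, 13, 14 and 20 it was 0.21. miR-196b, the HoxA copy with the same seed, had 173 CPM in strain 20, 156 in strain 27, 155 in strain 2, 148 in strain 13, 147 in strain 18 and 122 in strain 9, against 28.2 (strain 25), 84.7 and 272 (strain 10) as the lowest, median and highest of the 12 others. All 6 lay above the median of the others and 9 of the 12 lay below the lowest of the 6, but strains 10, 14 and 24 reached 272, 176 and 146 CPM, so the groups overlapped. The difference was 0.81 ± 0.27 log2 (SE; limma 95% interval 0.08 to 1.54), with an exact permutation p of 0.0464 and an adjusted p of 0.929. The 6 strains were close to each other in miR-196b (SD 0.163 log2) and the 12 others were not (SD 0.895 log2); this contrast in spread was not tested.

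The ratio of miR-196a to miR-196b turned round between the groups, which follows from the choice of strains by miR-196a. The median of miR-196b itself was not lower in the 6 strains (151 CPM, against 84.7 CPM in the 12), so the ratio is no separate result. It lay between 1.58 and 2.79 in the 6 strains (median 2.42) and between 0.0675 and 0.507 in the 12 others (median 0.149). Strains 10, 14 and 24, the 3 highest of the 12 in miR-196b, were also the 3 highest of the 12 in miR-196a, at 19.4, 26.5 and 23.7 CPM. Strains 23 and 25 came next in miR-196a, at 15.7 and 14.3 CPM, but had the lowest miR-196b of the 12, at 46.7 and 28.2 CPM. The strands differ by 1 base, and the part of shared reads in the miR-196a levels of the 12 strains was not tested.

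miR-10a comes from the same HoxB cluster as Mir196a-1, 51.9 kb after it (chr11:96317165-96317274, plus strand, between Hoxb5 and Hoxb4). It had 16104 CPM in strain 13, 5341 in strain 18, 4289 in strain 9, 3933 in strain 27, 3864 in strain 20 and 3415 in strain 2, against a lowest of 1219, a median of 3807 and a highest of 7674 in the 12 others. Strain 13 stood above all 17 other strains, while the other 5 high strains lay within the range of the 12. The difference was 0.42 ± 0.41 log2 (SE; limma 95% interval -0.36 to 1.19), with an exact permutation p of 0.317, and 0.09 log2 without strain 13. Strain 13 was at the same time the lowest of the 6 in miR-196a.

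miR-10b of the HoxD cluster (chr2:74726070-74726137, plus strand, in an intron of Hoxd3 and Hoxd4 transcripts), known from human and mouse work for its part in breast tumour cell invasion, had a lowest value of 780 CPM, a median of 1019 and a highest of 1319 in the 6 strains, against 518, 1070 and 2646 in the 12 others. The 6 lay inside the range of the 12. The difference was -0.06 ± 0.20 log2 (SE; limma 95% interval -0.58 to 0.46; exact permutation p = 0.817). The other Hox-cluster strands were under the filter and were not tested. miR-10a* had a lowest, median and highest of 5.56, 8.24 and 20.5 CPM in the 6 strains and 2.79, 5.32 and 14.1 CPM in the 12 others. miR-10b* had 1.2, 2.16 and 5.47 CPM in the 6 strains and 1.17, 1.90 and 2.97 CPM in the others. These ranges overlapped as well.

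miR-615 is encoded in a Hoxc5 intron 41.5 kb after Mir196a-2 (chr15:103014910-103015001, plus strand). miR-615-3p had 1.03 CPM in strain 2, 0.941 in strain 18, 0.579 in strain 27, 0.459 in strain 20, 0.375 in strain 9 and 0 in strain 13, against 0.269, 0.590 and 1.27 as the lowest, median and highest of the 12 others. miR-615-5p stayed at or under 0.171 CPM in the 6 strains and at or under 0.116 CPM in the 12. In both strands the groups overlapped, and no strain exceeded 1.27 CPM of either.

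**Figure D3:**
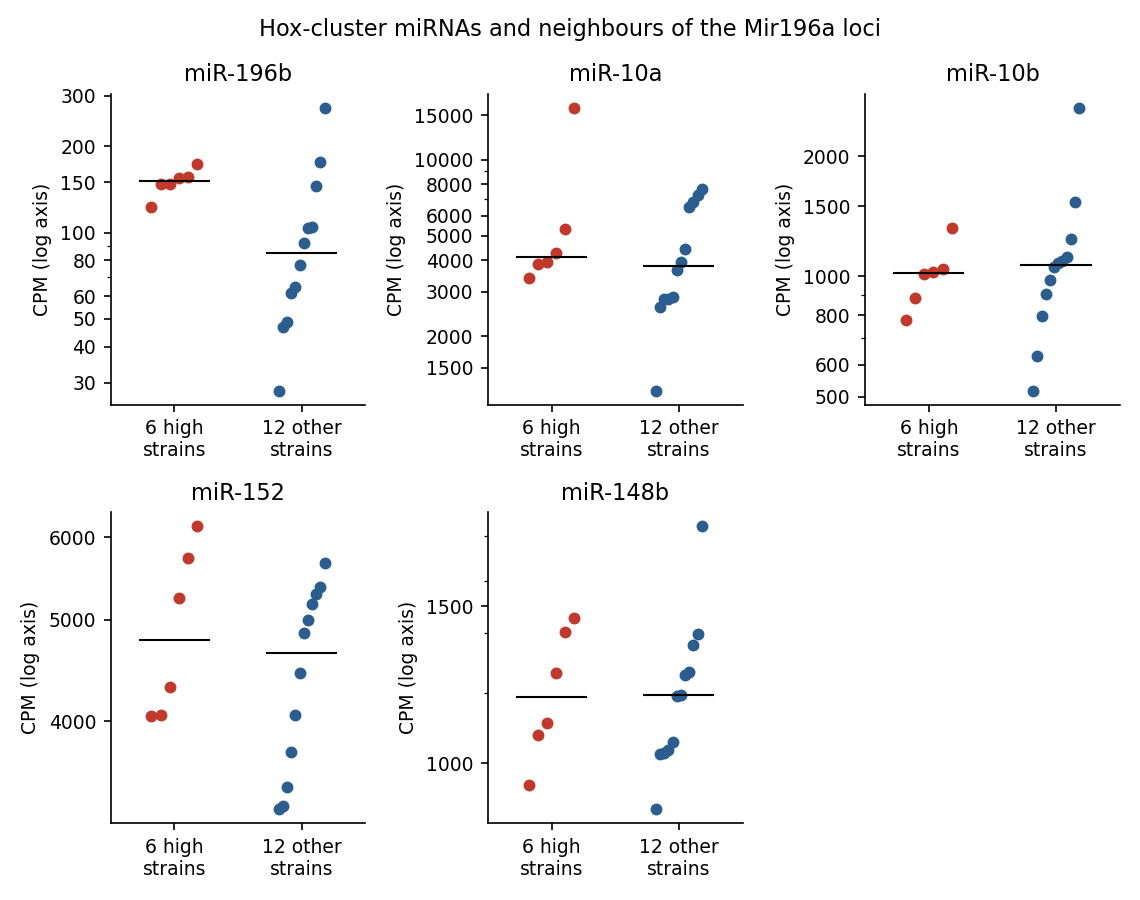
Levels of the tested Hox-cluster miRNAs and of tested neighbours of the Mir196a loci (CPM, log axes), with 1 point per strain, sorted by level within each group, and a line at the group median; the 6 high strains are left of the 12 others. The groups overlap in every panel, with strain 13 alone at 16104 CPM of miR-10a.

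Beyond the Hox clusters, the tested miRNAs whose genes lie within 5 Mb of a Mir196a locus were miR-152 and miR-148b, 2 members of the miR-148/152 family that share a seed with miR-148a. Their strands are shown with that of miR-148a, whose gene lies on chromosome 6, because its star strand had the smallest p of all those tested.
miR-148a-3p: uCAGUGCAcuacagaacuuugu
miR-148b-3p: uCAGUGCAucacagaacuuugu
miR-152-3p: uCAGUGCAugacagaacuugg
Mir152 lies 585.1 kb after Mir196a-1 (chr11:96850393-96850465, plus strand) in an intron of Copz2, and Mir148b lies 311.7 kb after Mir196a-2 (chr15:103285125-103285221, plus strand) in an intron of Copz1.

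miR-152 had a lowest of 4044 CPM, a median of 4778 and a highest of 6148 in the 6 strains, against 3294, 4652 and 5672 in the 12 others. The difference was 0.14 ± 0.14 log2 (SE; limma 95% interval -0.17 to 0.46; exact permutation p = 0.318). miR-148b had 947, 1187 and 1454 CPM in the 6 strains, against 889, 1192 and 1845 in the 12 others. Its groups overlapped almost fully, with a difference of 0.01 ± 0.13 log2 (SE; limma 95% interval -0.30 to 0.31; exact permutation p = 0.966). Mir1941, 1603.9 kb before Mir196a-2 (chr15:101369352-101369434, plus strand), gave miR-1941-5p at 0.0855, 0.204 and 0.902 CPM in the 6 strains and 0.120, 0.426 and 2.71 in the 12, while miR-1941-3p stayed under 0.24 CPM in both. Counting the miR-10a and miR-615 strands, 8 strands of this window were measured, 3 were tested and 0 were called, with a median difference of 0.14 log2. Over all 280, 0% were called and the median difference was 0.02 log2.

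Over the whole of both chromosomes, neighbours included, there was no call either. Of 25 tested miRNAs with their only locus on chromosome 11, 14 were higher and 11 lower in the 6 strains, 0 were called and 0 had an unadjusted exact permutation p under 0.05, with a median difference of 0.05 log2 (range -0.83 to 0.67, the highest being miR-21). Without strain 28, 24 were tested, 12 higher and 12 lower, with a median of 0.00 log2 (range -0.61 to 0.39, the highest being miR-10a). Of 9 with their only locus on chromosome 15, 5 were higher and 4 lower, 0 were called and 0 had an unadjusted p under 0.05, with a median of 0.01 log2 (range -0.30 to 0.42). Over all 280, 0% were called and 5.0% had an unadjusted permutation p under 0.05.

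The smallest unadjusted p-values belonged to miRNAs that are not neighbours of Mir196a. The miR-148a strand does lie on the chromosome of Mir196b, at chr6:51269829-51269850 beside chr6:52230081-52230165. Whether miR-148a* and miR-196b vary together was not tested. miR-148a*, the star strand of a miRNA abundant in mammary epithelium, had 706 CPM in strain 18, 689 in strain 2, 629 in strain 20, 486 in strain 13, 454 in strain 9 and 405 in strain 27, against 293, 396 and 536 as the lowest, median and highest of the 12 others. All 6 lay above the median of the others and 3 above their highest. The difference was 0.47 ± 0.15 log2 (SE; limma 95% interval 0.15 to 0.78; exact permutation p = 0.00377, adjusted p = 0.568). Its guide strand miR-148a, with 37810, 58566 and 76119 CPM in the 6 strains and 37529, 46298 and 72203 CPM in the others, differed by 0.23 ± 0.17 log2 (SE; exact permutation p = 0.163).

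miR-146b*, the star strand of miR-146b, had a lowest of 39.4 CPM, a median of 42.6 and a highest of 56.2 in the 6 strains, against 30.7, 36.5 and 46.1 in the 12 others (difference 0.29 ± 0.10 log2, SE; exact permutation p = 0.00609, adjusted p = 0.568). Its guide strand miR-146b differed by 0.35 log2 with an exact permutation p of 0.813, and by -0.15 log2 without strain 28. miR-425* differed by 0.28 log2 (exact permutation p = 0.0236) and miR-425 by 0.10 log2 (p = 0.538). Of the others with an unadjusted p under 0.05, miR-28 had 350, 394 and 495 CPM in the 6 strains and 235, 320 and 493 CPM in the 12 (difference 0.33 log2, exact permutation p = 0.0243). miR-872 had 1178, 1500 and 1867 CPM in the 6 strains and 862, 1280 and 1563 CPM in the 12 (0.30 log2, exact permutation p = 0.0358). miR-296-3p, outside the naming rule and named after its values were seen, had 11.0, 19.6 and 22.6 CPM in the 6 strains and 1.86, 9.36 and 28.8 CPM in the 12 (0.83 log2, exact permutation p = 0.0392). The adjusted p of each of these 4, miR-425*, miR-28, miR-872 and miR-296-3p, was 0.914 in the same permutation test.

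The other small p-values on the higher side came from miRNAs that were grouped by name. All 10 tested with names of the miR-297, miR-466, miR-467 and miR-669 kind have a locus on chromosome 2. Such names mostly belong to a repeated rodent cluster in an intron of Sfmbt2. The group was put together after its members' values were seen. Its sequences were not compared here, and members of similar sequence can share reads. miR-297a had 56.0 CPM in strain 9, 33.9 in strain 18, 33.4 in strain 27, 29.96 in strain 13, 28.8 in strain 20 and 27.1 in strain 2, against 13.7, 23.0 and 33.3 as the lowest, median and highest of the 12 others (difference 0.62 ± 0.19 log2, SE; limma 95% interval 0.22 to 1.03; exact permutation p = 0.0042, adjusted p = 0.568). miR-467a had 33.3, 48.9 and 70.8 CPM in the 6 strains and 21.8, 33.3 and 55.2 CPM in the 12 (0.53 log2, exact permutation p = 0.0205, adjusted p = 0.914). miR-466d-3p, miR-467d and miR-467c differed by 0.80, 0.49 and 0.66 log2, with exact permutation p-values of 0.0278, 0.0283 and 0.0371.

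Of 45 such rows measured, 10 were tested, all 10 had a higher mean in the 6 strains (under each of the 4 scalings as well), 0 were called and 5 had an unadjusted p under 0.05, beside 5.0% over all 280, in a group chosen for such values. Their median difference was 0.47 log2, beside 0.02 over all 280. Their summed level was 211, 346 and 448 CPM (lowest, median and highest, the last in strain 9) in the 6 strains and 151, 225 and 333 CPM in the 12 others, so the sums overlapped. The number with an unadjusted p under 0.05 was 2 with scaling by total counts, 1 without strain 9 and likewise 1 without strain 22. It was 8 without strain 2 and 6 without strain 3, 18 or 25.

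On the lower side, miR-326 had 10.2 CPM in strain 2, 11.8 in strain 18, 17.8 in strain 9, 20.0 in strain 13, 20.7 in strain 27 and 23.9 in strain 20, against 9.38 (strain 10), 26.2 and 41.6 as the lowest, median and highest of the 12 others. All 6 lay under the median of the others. The difference was -0.59 ± 0.24 log2 (SE; limma 95% interval -1.10 to -0.08; exact permutation p = 0.0326, adjusted p = 0.914). miR-2132 had 17.2, 33.7 and 81.9 CPM in the 6 strains and 38.0, 64.1 and 310.2 CPM in the 12 (-0.98 ± 0.46 log2, SE; exact permutation p = 0.0444, adjusted p = 0.929). The name miR-2132, like miR-2133, matched no annotated gene. Its 310.2 CPM was in strain 7, the library with the fewest reads. The next lower ones, miR-423-5p, miR-17*, miR-361, miR-2133, miR-199b*, miR-2137, miR-744 and let-7d*, had exact permutation p-values between 0.0608 and 0.183. miR-2137 had 29.2, 38.9 and 79.6 CPM in the 6 strains and 19.6, 83.0 and 415 CPM in the 12, with all 6 under the median of the others.

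**Figure D4:**
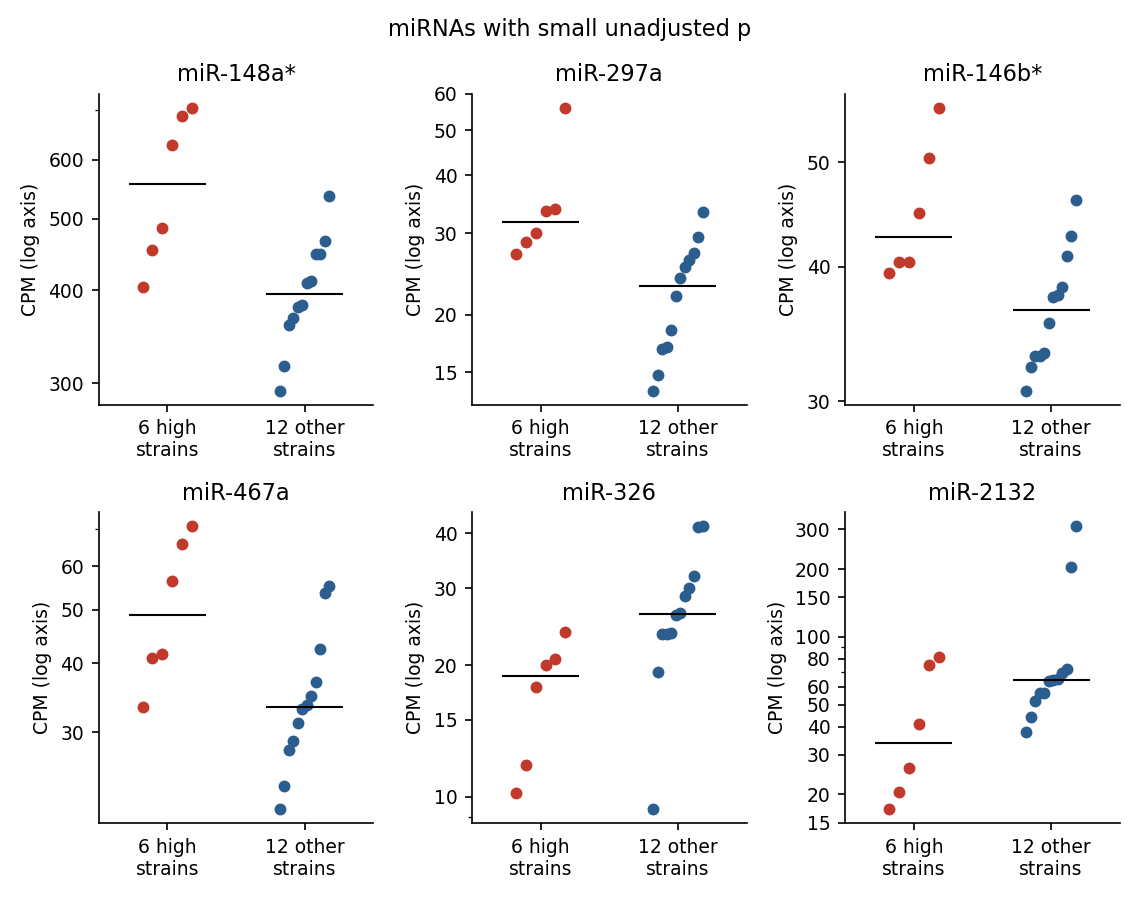
Levels of 4 miRNAs with a small unadjusted p that were higher in the 6 strains and of the 2 that were lower (CPM, log axes), with 1 point per strain, sorted by level within each group, and a line at the group median; the 6 high strains are left of the 12 others. The groups overlap in every panel, and no adjusted p is under 0.568.

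MiRNAs that mark cell types were set beside the split, because bulk tumour tissue can hold other cells than epithelium. The miR-200 family, which marks epithelium and opposes Zeb transcription factors, summed to 30082, 37861 and 49762 CPM (lowest, median and highest) in the 6 strains and 28506, 37897 and 54678 CPM in the 12 others. The tissue label was thus met by epithelial markers in every strain. Skeletal muscle miRNAs (miR-1, miR-133a, miR-133b and miR-206) summed to 22451, 105706 and 169838 CPM in the 6 strains and 23911, 78563 and 302958 CPM in the 12. Most of that sum was miR-1, with medians of 102989 CPM in the 6 and 75534 CPM in the 12. By mean log2 difference 2 of the 4 members were higher and 2 lower. Among the lower, miR-133a had medians of 191 CPM in the 6 and 356 CPM in the 12. Leukocyte miRNAs, mostly miR-142-3p by level, summed to 2155, 4541 and 18243 CPM in the 6 strains and 1572, 4532 and 12058 CPM in the 12. Both ranges overlapped widely between the groups.

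Each of 13 cell type lists had 0 called members and 0 with an unadjusted permutation p under 0.05. Over all 280 these shares were 0% and 5.0%, so a count of 0 does not set lists this short apart. Outside the pancreas and liver lists the members' median difference was under 0.4 log2 in size. Members' median differences were 0.08 log2 for epithelium, -0.08 for basal epithelium, -0.02 for mammary luminal cells, 0.07 for skeletal muscle and 0.06 for leukocytes. They were -0.23 for erythroid cells, 0.15 for endothelium, -0.35 for smooth muscle, 0.03 for mesenchyme, 0.05 for gut and kidney epithelium and -0.09 for neural cells, all beside 0.02 over the 280. The pancreas and liver lists had wide ranges in both groups. The pancreas miRNAs miR-216a, miR-216b and miR-217 summed to 5.39, 14.3 and 141 CPM in the 6 strains and 3.91, 87.6 and 237 CPM in the 12, with a median difference of -0.73 log2. miR-122, the main liver miRNA, had 33.0, 70.3 and 92.8 CPM in the 6 strains and 1.56, 43.9 and 375 CPM in the 12 (difference 0.86 ± 0.65 log2, SE; exact permutation p = 0.349). miR-203 of the basal list had 9931 CPM in strain 2, against 1362 to 3068 CPM in the other 5 high strains and 993 to 4377 CPM in the 12. The part of other cell types in the miR-196a split was not tested.

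**Figure D5:**
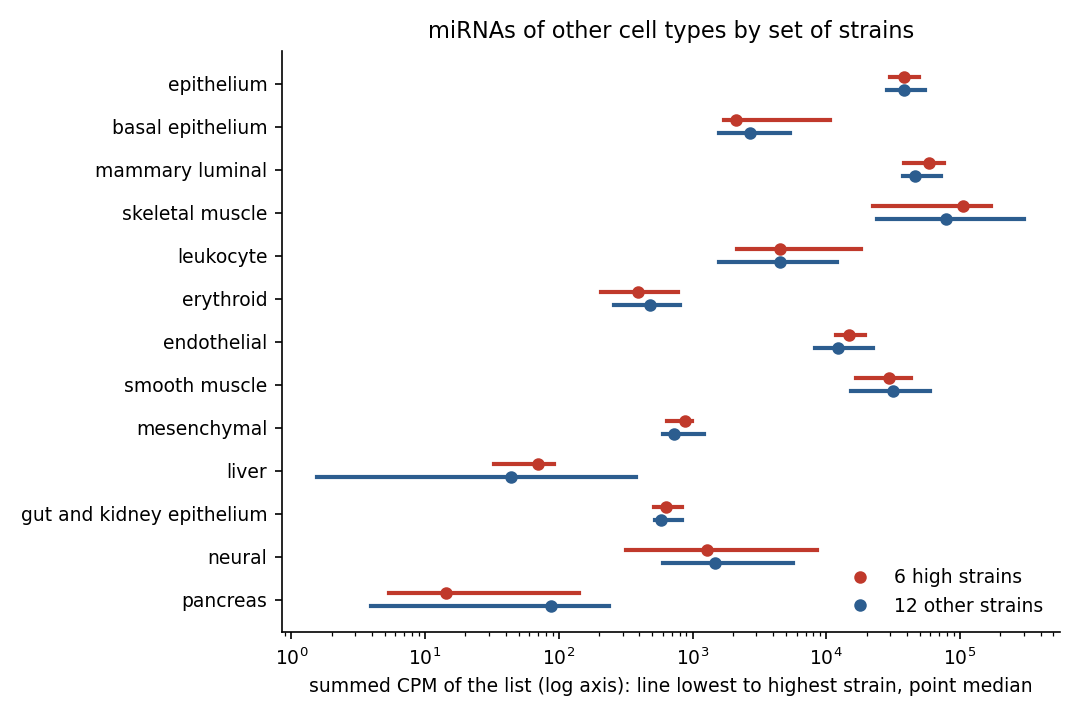
Summed level of the miRNAs of each cell type list (CPM, log axis), with a line between the lowest and the highest strain and a point at the median, the 6 high strains above the 12 others. The lines of the groups overlap in each list.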

How the data were processed

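Small RNA of 18 pooled mammary tumour libraries, 1 per AKXD strain, was measured by sequencing. The authors deposited log2 values with 583 miRNA rows; BWA and the mm9 build are named per the submitters' processing notes, and the sources used here do not name the counter, the miRNA annotation or filters. Raised as powers of 2, the deposited log2 values were whole reads multiplied by a constant of each library (100.0% of 3818 values of up to 50 reads, within 0.006 log2), and 0 means no reads, or also 1 read in strain 25. Depth was 4361226 to 14939851 reads over the distinct miRNA rows.

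The values were linearised, 20 rows in sets of identical rows were reduced to 1 per set (571 distinct rows), and the rest was brought to CPM with trimmed-mean (TMM) factors, cutting 30% of log ratios and 5% of abundances. Tests used log2(CPM + 1), a pseudocount that understates differences of low miRNAs. The 280 rows other than miR-196a averaging 10 CPM or more were tested by exact two-sided permutation of the difference of means over all splits of 6 against 12, adjusted by Benjamini-Hochberg; limma 3.58.1 (R 4.3.3; trended, robust) was the alternative and gave the intervals. Python 3.11.15, numpy 2.4.6, pandas 2.3.3, scipy 1.17.1 and matplotlib 3.10.9 were used. The permutation test was tried on simulated data. Rows were matched by name to annotated genes for 551 of 583. Coordinates are of GRCm38 (GENCODE M21; RefSeq GRCm38.p6 for sequences), not of the authors' mm9.

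The strains, lists and tests were chosen with earlier results of these data known. Named miRNAs are the Hox-cluster rows, rows within 5 Mb of a Mir196a locus, the 10 higher and 10 lower with the smallest p, those with no overlap, and the 2 most abundant of each cell type list. Alternatives were 3 other scalings, other pseudocounts and filters, ranks, and leaving out strains. PCR copies were not told apart, so read-based intervals hold counting error alone.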

Additional observations from a re-analysis of the deposited data

Results flagged for a closer look

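On the log2(CPM + 1) scale, a single strain stood apart from the other 5 of the high group for 3 of the 51 miRNAs checked, by a gap to its neighbour of more than 0.625 of the group's range; chance gives about 1 in 20 (gap shares are on that scale, levels in CPM). miR-10a was highest in strain 13, at 16104 CPM, with 5341 CPM next (gap 0.712 of the range). miR-297a was highest in strain 9, at 56.0 CPM, with 33.9 CPM next (0.692). miR-486, an erythroid miRNA, was lowest in strain 9, at 36.2 CPM, with 93.4 CPM next (0.701). On the CPM scale, tried after seeing the data, 5 miRNAs passed, each by its highest strain: miR-10a (gap 0.848 of the range), miR-297a (0.763), miR-203 (strain 2, 9931 CPM, 3068 CPM next, 0.801), miR-142-3p (strain 27, 17098 CPM, 4996 CPM next, 0.798) and miR-9 (strain 9, 8286 CPM, 2461 CPM next, 0.729), and miR-486 did not.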

How the results depend on the processing

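The count of called miRNAs was 0 under every scaling, pseudocount and filter tried, under ranks and with any 1 strain left out, except that with no filter 1 of 570 (0.175%) was called, miR-196a* (adjusted exact permutation p = 0.0307), which also made 1 the count of called Hox-cluster strands. This strand is cut from the same hairpins as miR-196a, which chose the strains, so its call is not independent of that choice. The number with an unadjusted p under 0.05 was 4 with total counts, 27 of 570 with no filter, and 6 to 21 with 1 strain left out (9 without strain 7, 13 or 28, 7 without strain 16, and 6 without strain 9 or 22). Without strains 10, 13, 14 and 20 it was 23 of 281, and the smallest possible adjusted p is then 0.281, so no call can be made. In that setting, with 4 strains against 10, 2 of the 281 did not overlap between the groups. They were miR-326 and miR-2137, both lower in the 4 high strains that remained. No paired analysis was possible because each strain has 1 library, so the groups share only replicate number 1. The cause of each change was not tested, and depth limits rows of few reads.

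Of 300 differences of 50 named miRNAs under the 6 settings that can move them (3 scalings, 2 pseudocounts, and 4 strains left out together), 286 kept their direction and 14 turned, all to values of at most 0.22 log2 in size. limma, ranks and other filters leave these differences as they are. Without strains 10, 13, 14 and 20 these were miR-10b (0.038 log2), miR-148b (-0.044), miR-200c (-0.100), miR-141 (-0.074), miR-1 (-0.040), miR-206 (-0.220) and miR-451 (0.036). With total counts they were miR-148b (-0.048), miR-200c (-0.007), miR-192 (-0.006) and miR-194 (-0.053), and with median-of-ratios scaling miR-148b (-0.039) and miR-194 (-0.043). With a pseudocount of 10 CPM it was miR-9* (0.044). With 1 strain left out at a time, 52 of 900 turned, in 15 miRNAs (without strain 28, miR-148b at -0.048, miR-200c at -0.039, miR-192 at -0.005 and miR-194 at -0.012, among others), whose log2 differences then ranged as follows: miR-10b -0.164 to 0.074, miR-126-5p -0.045 to 0.198, miR-141 -0.023 to 0.169, miR-142-3p -0.333 to 0.286, miR-142-5p -0.163 to 0.299, miR-148b -0.051 to 0.073, miR-192 -0.056 to 0.163, miR-194 -0.074 to 0.076, miR-200c -0.067 to 0.124, miR-203 -0.347 to 0.236, miR-206 -0.046 to 0.516, miR-214 -0.199 to 0.026, miR-451 -0.328 to 0.042, miR-9* -0.562 to 0.545, miR-9 -0.687 to 0.247.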
